A study of Mus musculus with 24 samples.

Results

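Histone lysine methyltransferases and demethylases, the enzymes that write and erase methyl marks on histone tails, were followed in mouse embryonic stem cells by polysome sequencing. Shared and attached subunits of one methyltransferase family were included. Members were taken by gene symbol: the Kmt, Setd, Setdb, Ehmt, Nsd, Suv39h and Smyd methyltransferases, numbered Prdm genes with 1 exception made by the rule, the Kdm demethylases, and Ash1l, Ash2l, Wdr5, Rbbp5, Dpy30, Cxxc1, Men1, Dot1l, Uty and Jmjd1c. This gave 66 of the 13504 genes in the table, of 71 protein-coding symbols of GENCODE M21 that fit the rule. Kdm4d, Prdm6, Prdm8, Prdm12 and Prdm13 were not analysed here. The grouping was proposed with the fold changes and p-values of both lines known, so the members count as chosen by those values, and their counts below are a description. By role they were sorted into 22 writers, 19 erasers, 6 subunits and 19 other genes with a SET or PR domain, in 13 lists. The roles are those of the lists, and the enzyme activity of single products was not examined.

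Most lysine methyltransferases carry a SET domain, which moves methyl groups from S-adenosylmethionine to lysine, whereas Dot1l has an unrelated fold. Methylation of H3K4 and H3K36 accompanies transcribed genes, and methylation of H3K9 accompanies heterochromatin and silenced retroelements. The flavin-dependent LSD enzymes and the JmjC enzymes, which need iron and 2-oxoglutarate, remove such marks. In mouse embryonic stem cells the H3K9 methyltransferase Setdb1 is known for silencing endogenous retroviruses.

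The study used 2 lines of E14 mouse embryonic stem cells, both carrying RACK1, which sits on the small subunit of the ribosome, fused to an auxin-inducible degron (AID). In RACK1-AID/RPS26-Tir1 Ribo-Tweezer cells, here Rps26Tir1, the auxin receptor TIR1 is joined to the ribosomal protein RPS26; in the RACK1-AID/Free Tir1 Control line, here FreeTir1, it is free. Either line received IAA (the auxin indole-3-acetic acid) or DMSO for 12 h. Polyadenylated RNA of 3 fractions, free, low and heavy in translation, was sequenced from 24 libraries, 2 in each of 12 groups. Neither clonality of the lines nor separate cultures behind the libraries are stated in the sources used here, so p-values may measure technical spread only.

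The values are those of the authors' deposited table: for every gene and line a log fold change between IAA and DMSO, its p-value and adjusted p, and an average expression. No log base is stated, and fold changes and average expression were taken as log2. Single libraries were not analysed here, so levels by fraction, replicate values and read depth are unknown, and RNA amount cannot be told apart from ribosome loading. The numerator of the fold change and the fractions behind it are not stated, so values are called positive or negative; if IAA is the numerator, as is usual, positive means more with IAA. A gene is called where its adjusted p is under 0.05. Standard errors were worked back from the p-values. All 8 defining embryonic stem cell markers were present, with average expression between 6.90 and 10.8 (authors' deposited table, taken as log2). Of 6 fibroblast feeder markers, 2 were present, and one, Col1a1, was called at -1.42 in Rps26Tir1 cells with an average expression of 0.15 (authors' deposited table). The other, Thy1, had -0.28 in Rps26Tir1 cells and -0.06 in FreeTir1 cells, not called in either, at an average expression of 3.53 (authors' deposited table). The 4 primitive endoderm markers had average expression of at most 1.11, and the 3 neural ones of at most 2.09 (authors' deposited table). The part of such cells in the results was not tested. Rack1 mRNA stood at -0.05 in Rps26Tir1 cells and 0.19 in FreeTir1 cells, not called in either (authors' deposited table); the degron acts on the protein, which mRNA does not measure.

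Positive values prevailed among the 66 genes in both lines. In Rps26Tir1 cells the authors' deposited table has 50 positive and 16 negative members and a median of 0.09, where 53.0% of all genes are positive, 47.0% negative and the median is 0.01. In FreeTir1 cells the authors' deposited table has 48 positive and 18 negative members and a median of 0.09, where 48.6% of all genes are positive, 51.4% negative and the median is -0.0044. With the trend in transcript length, GC content and expression over all genes removed, 42 members were positive in each line. Of all 13504 genes, 6610 were then positive in Rps26Tir1 cells and 6887 in FreeTir1 cells. Setd1b, with a positive value, and Setd6, with a negative one, were called in Rps26Tir1 cells, or 3.03% of the members. In the authors' deposited table, among all genes, 1.64% were called there, 1.1% positive and 0.541% negative. No member was called in FreeTir1 cells, where 0.0% of all genes were; 4 members had an unadjusted p under 0.05 (authors' deposited table). Those 4, all positive, were 6.06% of the members, against 6.69% of all genes, 2.72% positive and 3.98% negative. In Rps26Tir1 cells 19 members (28.8%) had an unadjusted p under 0.05, 17 positive and 2 negative, against 16.3% of all genes, 9.55% positive and 6.72% negative (authors' deposited table).

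**Figure D1:**
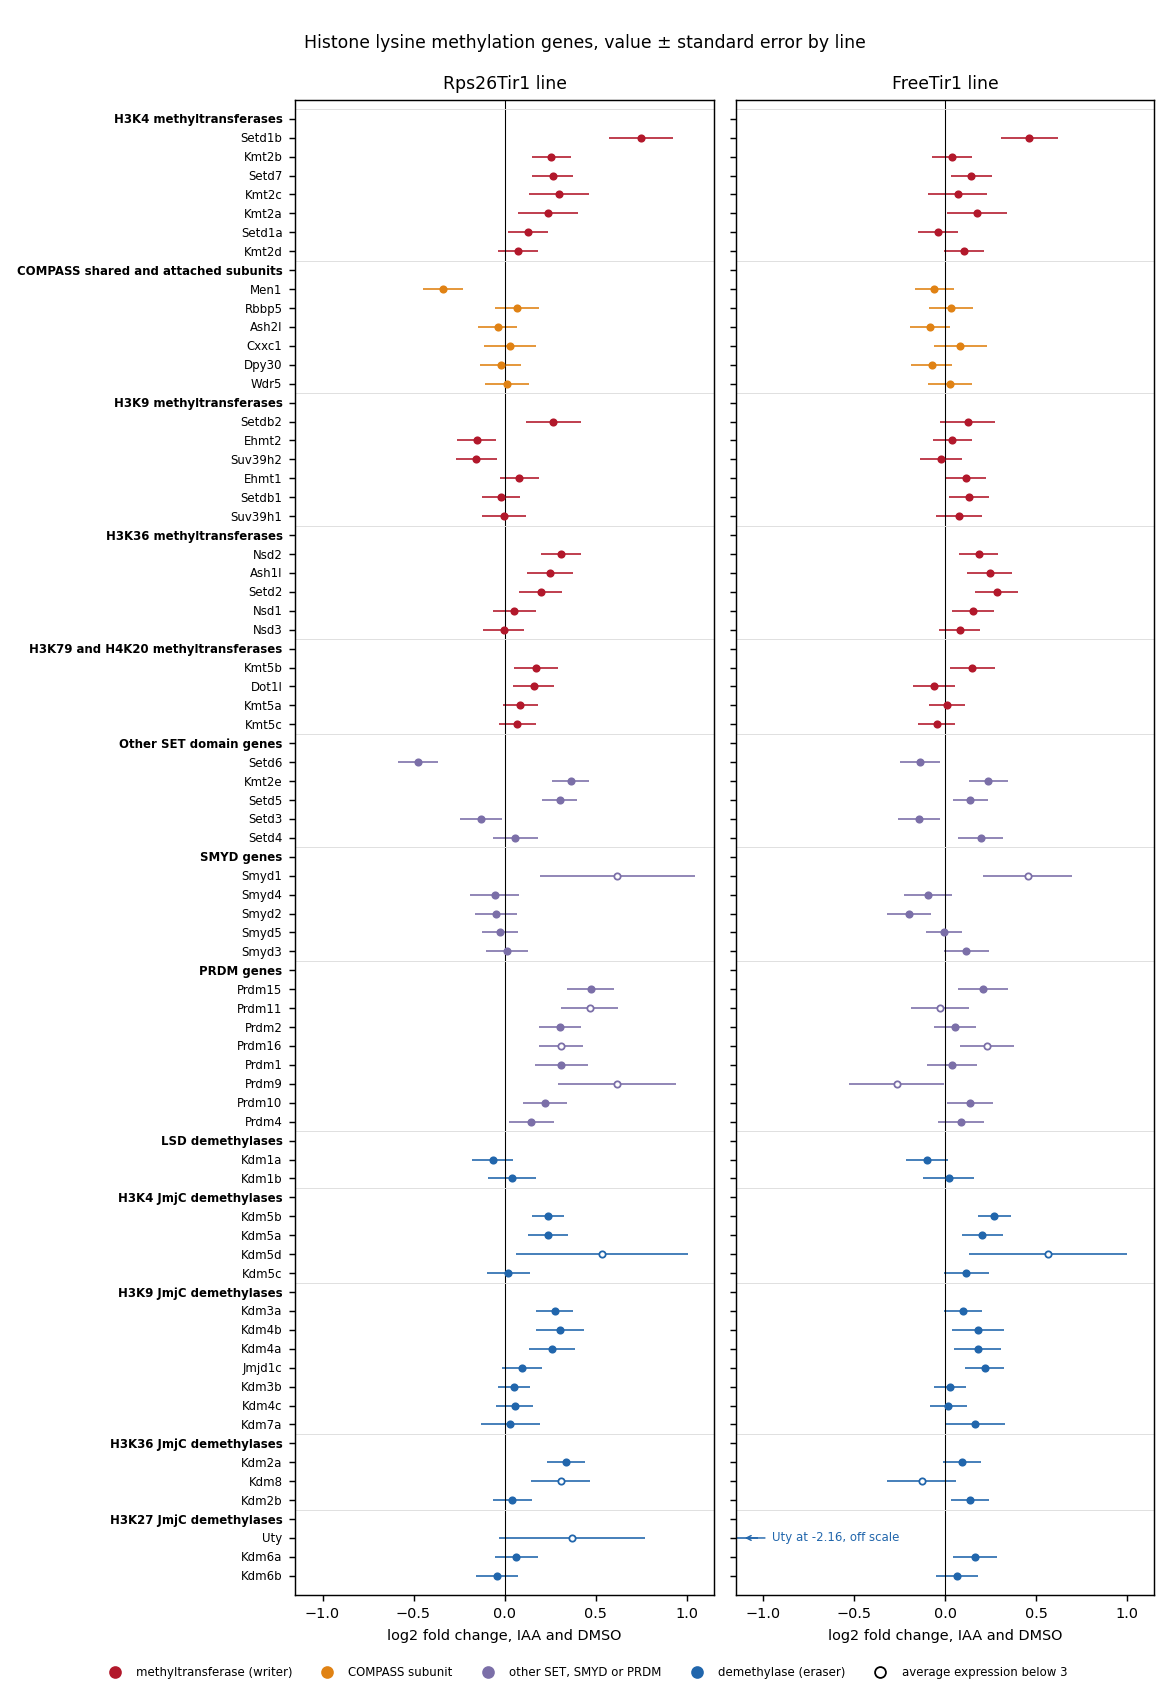
Log2 fold change between IAA and DMSO (x axis) of 65 of the 66 genes, sorted by role (y axis), in Rps26Tir1 cells on the left and FreeTir1 cells on the right. Points are values of the authors' deposited table, bars 1 standard error worked back from the p-values, and open points genes with average expression below 3; Setd1b at 0.75 and Setd6 at -0.47 are the called genes, and Uty lies off the scale at -2.16 on the right.

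Among H3K4 methyltransferases all 7 were positive in Rps26Tir1 cells, with a median of 0.26, and 6 of 7 in FreeTir1 cells, with a median of 0.11. After removal of the trend described above, their Rps26Tir1 median was 0.14, with 6 of 7 positive. Their FreeTir1 median then turned negative, at -0.04, with 3 of 7 positive. Setd1b, a catalytic subunit of the COMPASS complexes that methylate H3K4, lies on chromosome 5 at 123142193 to 123168629 (GRCm38). By the authors' deposited table it stood at 0.75 in Rps26Tir1 cells (standard error 0.175, adjusted p = 0.0260). By the same authors' deposited table its FreeTir1 value was 0.46, with a standard error of 0.156, an unadjusted p of 0.00626 and adjusted p = 0.458. The gene was positive in both lines and called in one. Removing the trend with transcript length, GC content and expression over all genes gave 0.64 in Rps26Tir1 cells and ended the call (adjusted p = 0.0712); over the settings tried the adjusted p lay between 0.0260 and 0.0712.

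The closest relative, Setd1a, had 0.13 in Rps26Tir1 cells and -0.04 in FreeTir1 cells, with adjusted p of 0.592 and 0.974 (authors' deposited table). The last coding bases of the pair, which encode the end of the catalytic SET region, are shown because reads of the 2 mRNAs can be separated only where the sequences differ. Both come from GENCODE M21 transcripts on GRCm38, plus strand, 5′ to 3′ through the stop codon, at chr5:123165857-123166006 and chr7:127799330-127799479. Capitals mark the bases at which they differ.
Setd1b: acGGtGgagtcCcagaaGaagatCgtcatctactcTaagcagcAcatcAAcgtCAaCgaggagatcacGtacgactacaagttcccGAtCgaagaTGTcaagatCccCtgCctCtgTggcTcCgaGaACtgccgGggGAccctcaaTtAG
Setd1a: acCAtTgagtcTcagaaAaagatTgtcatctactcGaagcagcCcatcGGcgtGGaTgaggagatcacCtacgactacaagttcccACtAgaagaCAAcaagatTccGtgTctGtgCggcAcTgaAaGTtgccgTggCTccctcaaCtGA
Over these 150 bases the pair differed at 36 and was 76.0% identical. Of the 31-base stretches of the whole Setd1b transcript, 0.0820% occur in another gene. For Setd1a the share was 54.6%, nearly all of it with Gm49388, a gene model that overlaps it on the same strand, so the Setd1a value is uncertain.

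None of the other H3K4 writers was called, where 1.64% of all genes were in Rps26Tir1 cells and 0.0% in FreeTir1 cells. Kmt2b, an H3K4 methyltransferase that acts at CpG-rich promoters, had 0.26 in Rps26Tir1 cells and 0.04 in FreeTir1 cells (authors' deposited table; adjusted p 0.215 and 0.977). Kmt2c, which like Kmt2d methylates H3K4 at enhancers, had 0.30 and 0.07 (authors' deposited table; adjusted p 0.372 and 0.970). Setd7, an enzyme with many substrates besides histones, had 0.26 and 0.14 (authors' deposited table; adjusted p 0.225 and 0.853). All of these FreeTir1 values were smaller than the Rps26Tir1 ones. Kmt2a, the founding member of the Kmt2 group, had 0.24 and 0.18, and Kmt2d had 0.07 and 0.11 (authors' deposited table).

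The 6 shared and attached COMPASS subunits had medians nearer to 0 than the catalytic genes, -0.0031 in Rps26Tir1 cells and -0.02 in FreeTir1 cells. In each line 3 of them were positive and 3 negative. Wdr5, Rbbp5, Ash2l and Dpy30, which form the core that stimulates the SET domain, ranged from -0.04 to 0.07 in Rps26Tir1 cells, and Cxxc1, the CpG-binding subunit of the Setd1 complexes, had 0.03 (authors' deposited table). Men1, which encodes menin, a subunit of the Kmt2a and Kmt2b complexes, had the most negative value of the 6 in Rps26Tir1 cells. By the authors' deposited table it stood at -0.34 in Rps26Tir1 cells, with a standard error of 0.108, an unadjusted p of 0.00394 and adjusted p = 0.0982, and at -0.06 in FreeTir1 cells, with adjusted p = 0.960.

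No writer of another mark was called, against the same 1.64% and 0.0% of all genes. The 6 H3K9 methyltransferases had a median of -0.01 in Rps26Tir1 cells, with 2 positive, and 0.09 in FreeTir1 cells, with 5 positive. Setdb2 had the smallest p of them at 0.27 in Rps26Tir1 cells, with adjusted p = 0.382 (authors' deposited table). Ehmt2, which encodes the H3K9 methyltransferase G9a, had -0.15, and Suv39h2, an enzyme of pericentric heterochromatin, -0.16 (authors' deposited table; adjusted p 0.509 and 0.526). Ehmt1, the partner of G9a, had 0.08, so these genes did not share a sign (authors' deposited table; adjusted p 0.760). Setdb1 and Suv39h1 had -0.02 and -0.0036 in Rps26Tir1 cells, and 0.13 and 0.07 in FreeTir1 cells (authors' deposited table).

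H3K36 methyltransferases were positive in 4 of 5 cases in Rps26Tir1 cells, with a median of 0.20, and in 5 of 5 in FreeTir1 cells, with a median of 0.18. Setd2, which places H3K36 trimethylation behind elongating RNA polymerase II, had 0.28 in FreeTir1 cells, with an unadjusted p of 0.0234 and adjusted p = 0.605, and 0.20 in Rps26Tir1 cells, with adjusted p = 0.410 (authors' deposited table). Nsd2, which places H3K36 dimethylation, had 0.31 in Rps26Tir1 cells and 0.18 in FreeTir1 cells (authors' deposited table; adjusted p 0.132 and 0.767). Ash1l, also an H3K36 methyltransferase, had 0.25 and 0.25 (authors' deposited table; adjusted p 0.312 and 0.699). Its values were thus alike in both lines. Nsd1 and Nsd3, relatives of Nsd2, had 0.05 and -0.0052 in Rps26Tir1 cells, and 0.15 and 0.08 in FreeTir1 cells (authors' deposited table). The 4 enzymes of H3K79 and H4K20 were positive in Rps26Tir1 cells, from 0.07 to 0.17 (authors' deposited table). Kmt5b, an H4K20 methyltransferase, had the highest of these, with adjusted p = 0.503, and Dot1l, the H3K79 methyltransferase, had 0.16, with adjusted p = 0.513 (authors' deposited table). Kmt5a, which adds the first methyl group to H4K20, had 0.09, and Kmt5c, which like Kmt5b adds further ones, 0.07 (authors' deposited table). In FreeTir1 cells 2 of these 4 genes were positive, with a median of -0.02. Dot1l had -0.06 there, Kmt5c -0.05, Kmt5a 0.01 and Kmt5b 0.15 (authors' deposited table).

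Setd6 had the most negative Rps26Tir1 value of all members. It encodes a lysine methyltransferase whose best known substrate is RelA, a subunit of NF-kappa-B, rather than a histone, and lies on chromosome 8 at 95715881 to 95719010 (GRCm38). By the authors' deposited table it stood at -0.47 in Rps26Tir1 cells (standard error 0.111, adjusted p = 0.0269) and at -0.14 in FreeTir1 cells, with adjusted p = 0.856. Removing the trend with length, GC content and expression gave -0.44 and ended the call (adjusted p = 0.0532, the highest over the settings tried; the lowest was 0.0268). A processed pseudogene, Gm5405, holds 7.33% of the 31-base stretches of its transcript.

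Kmt2e and Setd5, SET domain proteins whose methyltransferase activity is absent or disputed, were positive in both lines. Kmt2e had 0.36 in Rps26Tir1 cells and 0.24 in FreeTir1 cells (authors' deposited table; adjusted p 0.0631 and 0.641). Exons of Srpk2 on the opposite strand overlap 13.4% of its transcript, and whether reads were counted by strand is not stated. Setd5 had 0.30 and 0.14 (authors' deposited table; adjusted p 0.0924 and 0.818). Setd3, which methylates a histidine of actin, had -0.13 and -0.14, values made uncertain by 49.4% of shared stretches, mostly with processed pseudogenes (authors' deposited table). Setd4 had 0.06 and 0.20 (authors' deposited table). Genes on the opposite strand also overlap 39.2% of the transcript of Smyd2, 26.0% of Suv39h1, 12.1% of Kdm2b and 10.1% of Kdm1b. A pseudogene holds 15.8% of the stretches of Rbbp5, and other genes hold 13.2% of those of Kdm2b, 10.4% of Prdm4 and 10.3% of Kdm5d. The values of these genes are uncertain too.

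The Prdm genes encode zinc finger proteins with a PR domain related to SET, and 8 of 9 were positive in Rps26Tir1 cells, with a median of 0.31, against 6 of 9 in FreeTir1 cells, with a median of 0.05. Prdm15, a regulator of naive pluripotency in mouse embryonic stem cells, lay just outside the threshold. It had 0.47 in Rps26Tir1 cells and 0.21 in FreeTir1 cells (authors' deposited table; adjusted p 0.0518 and 0.817). Prdm11 had 0.47 and -0.03, at an average expression of 2.13 (authors' deposited table; adjusted p 0.118 and 0.989). Prdm2, for which H3K9 methyltransferase activity is described, had 0.30 and Prdm16, a regulator of brown fat, 0.31 in Rps26Tir1 cells (authors' deposited table; adjusted p 0.171 and 0.183). Of the Smyd genes 4 lay between -0.05 and 0.02 in Rps26Tir1 cells, while Smyd1, a muscle gene, had 0.62 with a standard error of 0.424, at an average expression of 0.14 (authors' deposited table). In FreeTir1 cells Smyd2 had -0.20, the most negative value there of a member with average expression of at least 3 (authors' deposited table; adjusted p 0.783).

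No demethylase gene was called in either line, where 1.64% of all genes were in Rps26Tir1 cells and 0.0% in FreeTir1 cells. Of the 19 genes 17 were positive in Rps26Tir1 cells and 16 in FreeTir1 cells, against 53.0% and 48.6% of all genes. The 4 H3K4 demethylases of the Kdm5 family were positive in both lines, with medians of 0.24 and 0.24. Kdm5b, the one with the highest average expression, had 0.24 with a standard error of 0.0892 in Rps26Tir1 cells, and 0.27 with a standard error of 0.0904 in FreeTir1 cells (authors' deposited table). Its unadjusted p was 0.0120 and 0.00564, the latter the smallest of any member in FreeTir1 cells, and its adjusted p 0.156 and 0.454 (authors' deposited table). The values for Kdm5a were 0.24 and 0.20 (authors' deposited table; adjusted p 0.262 and 0.732). The X-linked gene Kdm5c had 0.02 and 0.12 (authors' deposited table). Its Y-linked counterpart, Kdm5d, had 0.53 and 0.57 with standard errors of 0.472 and 0.434, at an average expression of 0.17 (authors' deposited table).

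The 7 JmjC demethylases of H3K9 were likewise positive in both lines, with medians of 0.10 in Rps26Tir1 cells and 0.17 in FreeTir1 cells. Kdm3a, an H3K9 demethylase that supports self-renewal of mouse embryonic stem cells, had 0.28 and 0.10 (authors' deposited table; adjusted p 0.153 and 0.911). Kdm4b, which acts on H3K9 and H3K36, had 0.30 and 0.18 (authors' deposited table; adjusted p 0.230 and 0.853). Its relative Kdm4a had 0.26 and 0.18, so for these genes the FreeTir1 value was the smaller one (authors' deposited table; adjusted p 0.294 and 0.832). Jmjd1c, a relative of Kdm3a, had the larger value in FreeTir1 cells, 0.22 against 0.10 (authors' deposited table; adjusted p 0.696 and 0.703). Kdm3b, Kdm4c and Kdm7a lay between 0.03 and 0.06 in Rps26Tir1 cells (authors' deposited table).

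Kdm2a, an H3K36 demethylase that binds CpG islands, had the smallest p of any eraser in Rps26Tir1 cells. It stood at 0.34 there, standard error 0.105 and adjusted p = 0.0870, and at 0.09 in FreeTir1 cells, with adjusted p = 0.913 (authors' deposited table). Its relative Kdm2b, which brings a Polycomb complex to CpG islands, had 0.04 and 0.14 (authors' deposited table). Kdm8 had 0.31 and -0.13, with standard errors of 0.161 and 0.190, at an average expression of 2.34 (authors' deposited table). Of the H3K27 demethylases, Kdm6a had 0.07 and 0.17, and Kdm6b -0.04 and 0.07 (authors' deposited table). Uty, the Y-linked relative of Kdm6a, had 0.37 and -2.16, with standard errors of 0.400 and 1.13, at an average expression of -1.27 (authors' deposited table). The LSD enzymes lay close to 0, Kdm1a at -0.06 and -0.10 and Kdm1b at 0.04 and 0.02 (authors' deposited table).

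Set side by side, the ranges of writers and erasers overlapped in both lines. In Rps26Tir1 cells the 22 writers had a median of 0.15 and quartiles of 0.06 and 0.26, with 17 positive; the 19 erasers had a median of 0.10 and quartiles of 0.04 and 0.29, with 17 positive. In FreeTir1 cells the writers had a median of 0.11, with 18 positive, and the erasers 0.12, with 16 positive. Writers minus erasers, the medians differed by 0.05 in Rps26Tir1 cells and -0.0068 in FreeTir1 cells. Adding the COMPASS subunits to the writers turned the Rps26Tir1 difference to -0.02. At an unadjusted p under 0.05 there were 4 writers (18.2%) and 6 erasers (31.6%) in Rps26Tir1 cells, all positive, where 16.3% of all genes had such a p and 9.55% a positive value with it (authors' deposited table). In FreeTir1 cells there were 2 writers (9.09%) and 1 eraser (5.26%), all positive, against 6.69% and 2.72% of all genes (authors' deposited table). For H3K4, the 7 writers and the 4 Kdm5 erasers were positive in Rps26Tir1 cells, whereas of the LSD enzymes, which also erase H3K4 methylation, Kdm1b was positive and Kdm1a negative (authors' deposited table).

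**Figure D2:**
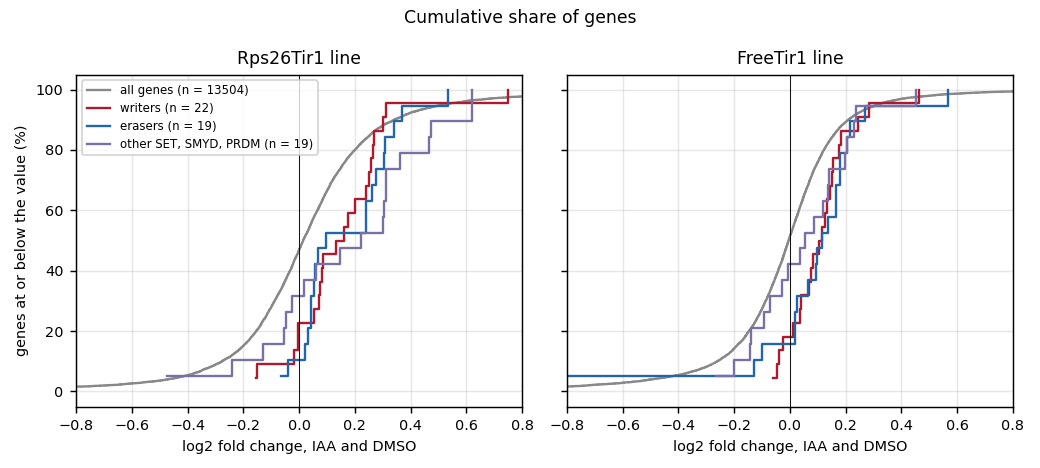
Cumulative share of genes (y axis, percent) at or below a log2 fold change (x axis) in Rps26Tir1 cells on the left and FreeTir1 cells on the right, for all 13504 genes, 22 writers, 19 erasers and 19 other SET, SMYD and PRDM genes. The writer and eraser curves cross and lie mostly to the right of the curve of all genes, with medians of 0.15 and 0.10 against 0.01 on the left; values beyond 0.8 in either direction are not drawn.

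Whether values differed between the lines was computed gene by gene, as Rps26Tir1 minus FreeTir1 over the combined standard error, adjusted over 13504 genes. No member passed (adjusted p 0.735 to 0.9998), where 0.00741% of all genes did, none of them positive. Of the members 41 had a positive difference and 25 a negative one, with a median of 0.04, where 54.1% of all genes were positive and 45.9% negative. At an unadjusted p under 0.05 there were 4 members (6.06%) against 6.18% of all genes: Prdm11, Prdm9 and Uty with a positive difference, where 4.15% of all genes were, and Setd6 with a negative one, where 2.03% were. The 3 largest differences among members with average expression of at least 3 were those of Setd6, Setd1b and Men1. For Setd6 the difference was -0.34, with a 95% interval from -0.66 to -0.02, an unadjusted p of 0.0404 and adjusted p = 0.764. For Setd1b it was 0.29 (95% interval -0.19 to 0.77, adjusted p = 0.9998), and for Men1 -0.28 (95% interval -0.59 to 0.03, adjusted p = 0.878). The calls of Setd1b and Setd6 in one line are therefore not shown to be differences between the lines. The calculation assumes independent errors in the lines, which the deposited values do not establish.

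**Figure D3:**
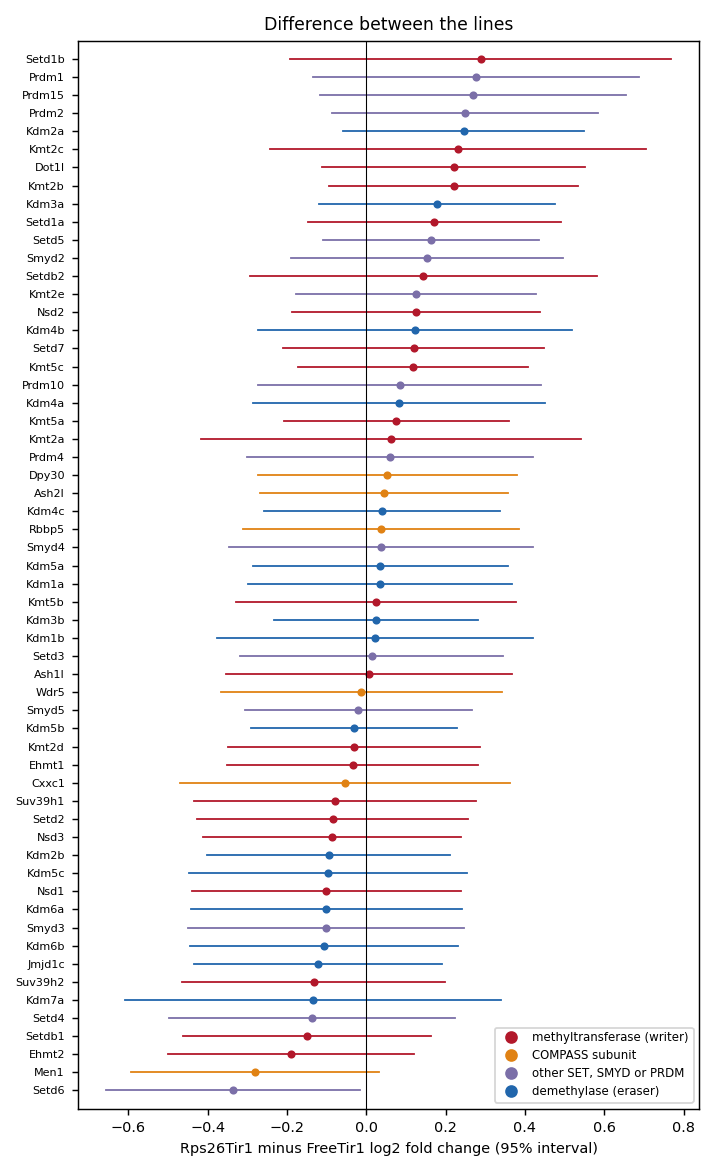
Difference of the log2 fold changes, Rps26Tir1 minus FreeTir1 (x axis), for 58 of the 59 members with average expression of at least 3, sorted by value (y axis). Points are differences and lines 95% intervals before any adjustment; that of Setd6, from -0.66 to -0.02, is the only one drawn that leaves out 0, and its adjusted p is 0.764.

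Both lines gave the same sign for 54 of the 66 members, 43 positive and 11 negative, or 81.8%, against 62.2% of all genes. Over the 59 members with average expression of at least 3, Pearson r between lines was 0.70 and Spearman rho 0.64, where the 8633 such genes had 0.47 and 0.46. Over all 66 members they were 0.139 and 0.47, and over all 13504 genes 0.061 and 0.269; points are genes of one table and not independent replicates. The 7 members below that level (Prdm11, Prdm16, Prdm9, Kdm8, Smyd1, Kdm5d and Uty) were all positive in Rps26Tir1 cells, from 0.31 to 0.62, and 3 of 7 in FreeTir1 cells (authors' deposited table). Their standard errors had medians of 0.324 and 0.244, against 0.114 and 0.115 for the other 59.

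**Figure D4:**
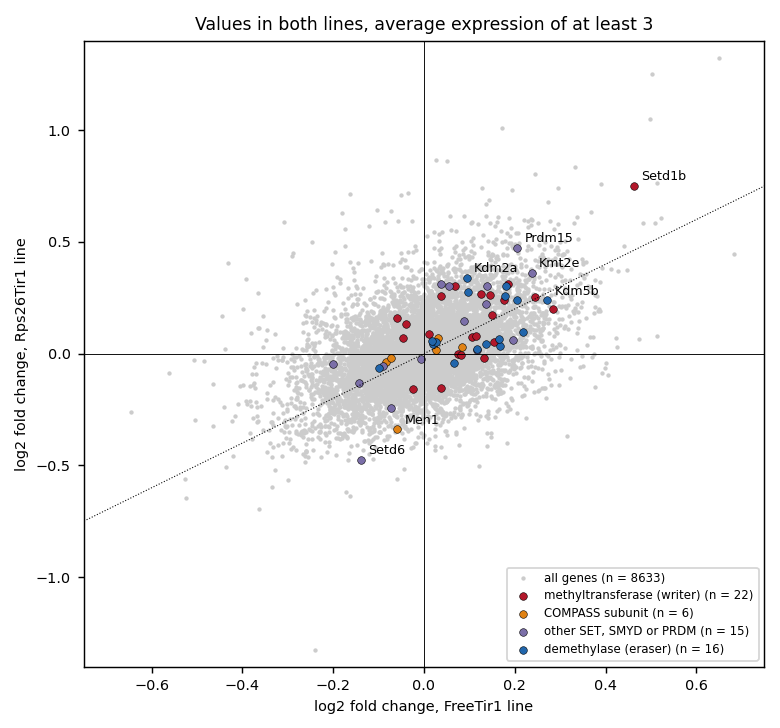
Log2 fold change in FreeTir1 cells (x axis) and Rps26Tir1 cells (y axis) of the 8633 genes whose average expression is at least 3 (grey) and the 59 members among them, coloured by role; the dotted line marks equal values. Of these members 40 lie in the upper right part, with Setd1b farthest out at 0.46 and 0.75, and Setd6 and Men1 are lowest at -0.47 and -0.34 on the y axis.

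Transcripts of the members were longer at the median than those of all genes, a feature outside the symbol rule. The COMPASS subunits were not, nor was the list of Setd3, Setd4, Setd5, Setd6 and Kmt2e. Over all members the median was 5083.5 bases and 20.5 exons, against 2881.5 bases and 9 exons for all genes. Writers had a median of 6863.5 bases, erasers 5935, the COMPASS subunits 2754 and the list with Setd6 2755. The longest was Kmt2d at 19823 bases and the shortest Dpy30 at 622. Across the 59 members with average expression of at least 3, Spearman rho between length and value was 0.507 in Rps26Tir1 cells and 0.595 in FreeTir1 cells, where all such genes had 0.287 and 0.211; this is a description across genes. Within roles, rho for the 22 writers, all at that level, was 0.317 in Rps26Tir1 cells and 0.414 in FreeTir1 cells. For the 19 erasers, of which 16 were at that level, it was 0.004 and 0.574. Over those 19 genes no such relation was seen in Rps26Tir1 cells.

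Of the 22 shortest members, 622 to 3517 bases, 11 were positive in Rps26Tir1 cells and 9 in FreeTir1 cells, with medians of 0.0052 and -0.05. Of the 22 longest, 6871 to 19823 bases, 21 were positive in each line, with medians of 0.25 and 0.17. All genes in the range of the longest were positive in 74.5% and 71.1% of cases, with medians of 0.13 and 0.09, and those in the range of the shortest in 46.3% and 43.8%. Setd6, at 1707 bases, and Men1, at 2652, belonged to the short group, and Setd1b, at 7362, to the long one. With the trend removed, the Rps26Tir1 median went from 0.15 to 0.10 for writers and from 0.10 to 0.0071 for erasers. The FreeTir1 median went from 0.11 to 0.03 and from 0.12 to 0.06. Positive values then numbered 15 of 22 writers and 10 of 19 erasers in Rps26Tir1 cells. In FreeTir1 cells they numbered 14 of 22 writers and 14 of 19 erasers.

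**Figure D5:**
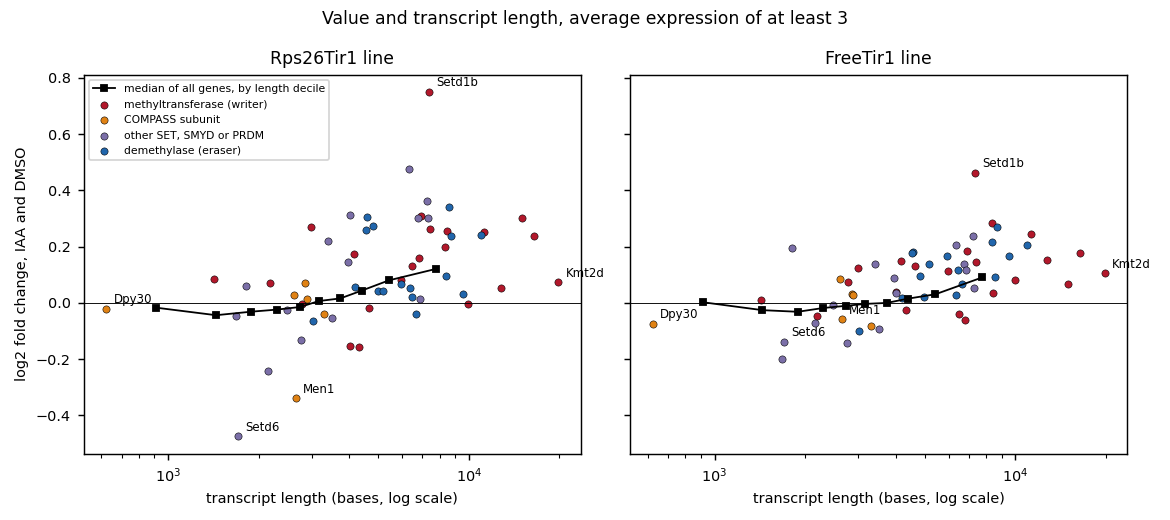
Transcript length (x axis, bases, log scale) and log2 fold change (y axis) of the 59 members with average expression of at least 3, coloured by role, in Rps26Tir1 cells on the left and FreeTir1 cells on the right; the black line joins medians of all such genes by length decile. The longest members are mostly positive in both panels, and on the left Setd1b, at 7362 bases, stands above the line while Setd6 and Men1, at 1707 and 2652 bases, stand below it.

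Partners of these enzymes, taken from lists, had no call in either line, where 1.64% of all genes were called in Rps26Tir1 cells and 0.0% in FreeTir1 cells. Of 10 accessory subunits of COMPASS-like complexes 5 were positive in Rps26Tir1 cells, with a median of 0.01. Bod1l, a partner of Setd1a at damaged replication forks, had 0.42, and Paxip1, a subunit of the Kmt2c and Kmt2d complexes, -0.19 (authors' deposited table; adjusted p 0.146 and 0.359). Of 11 partners and readers of H3K9 methylation 8 were positive, with a median of 0.07. Cbx5, which encodes heterochromatin protein HP1 alpha, had 0.25, and Atf7ip, a cofactor of Setdb1, 0.19 (authors' deposited table; adjusted p 0.156 and 0.437). Of 9 partners of LSD1, the product of Kdm1a, 6 were positive, with a median of 0.06. Rcor3, of the CoREST corepressor family, had 0.23, and the deacetylase gene Hdac1 -0.15 (authors' deposited table; adjusted p 0.455 and 0.492). Other genes hold 62.7% of the 31-base stretches of Hdac1, so its value is uncertain. In FreeTir1 cells 4 of the 10 accessory subunits, 9 of the 11 H3K9 partners and readers and 4 of the 9 LSD1 partners were positive. Their medians there were -0.05, 0.05 and -0.08. Rcor3 had -0.16 there, Bod1l 0.27, Paxip1 -0.09, Cbx5 0.18, Atf7ip 0.15 and Hdac1 -0.09 (authors' deposited table).

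Of 7 demethylase relatives outside the symbol rule 3 were positive in Rps26Tir1 cells, with a median of -0.01. In FreeTir1 cells 3 were positive as well, with a median of -0.0006. Jarid2, a JmjC protein without demethylase activity that works with Polycomb complex PRC2, had -0.25 in Rps26Tir1 cells and 0.16 in FreeTir1 cells (authors' deposited table; adjusted p 0.199 and 0.790). Its difference between the lines was -0.41, with a standard error of 0.142, an unadjusted p of 0.00736 and adjusted p = 0.512. Phf8, a demethylase of H3K9, had -0.19 in Rps26Tir1 cells (authors' deposited table; adjusted p 0.457).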

How the data were processed

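Per the labels' protocols, Trizol RNA was made into TruSeq libraries and sequenced in pairs; aligner, counting, build and model: not given in the sources used here. Per the file headers, the deposited fold changes and average expression are log values in limma's column names, taken as log2 with no base stated. The deposited p-value, raw and adjusted, stands beside each, per the file headers, and imply 15864 genes tested, of which 13504 are in the table.

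Standard errors are fold changes over t-statistics recovered from the p-values at 28 degrees of freedom, the whole number that made the ratio of the lines' standard errors vary least. Differences between lines were tested two-sided with these, and Benjamini-Hochberg adjusted over all genes. On simulated data of 13504 genes, fitted with limma 3.58.1 (R 4.3.3), the Rps26Tir1 minus FreeTir1 test recovered 18 of 67 planted differences of 0.5, 62 of 67 of 1 and 66 of 66 of 2 (log2), with 10 false calls. The simulated libraries had independent normal errors, with the 3 fractions as replicates under an additive term, which the deposited model may not share. Differences were planted only at average expression of at least 3, and 21 degrees of freedom were estimated there. No size under 0.5 was planted, so recovery of differences as small as the -0.34 of Setd6 is not known. Trends were removed with natural splines of 4 degrees of freedom for log length, GC content and average expression. Lengths, coordinates and 31-base stretches are from GENCODE M21 (GRCm38), read in Python 3.11.15; the authors' annotation may differ.

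The members and lists were chosen with earlier results of these data known, so lists get counts and medians, without tests. Genes named were those called, up to 4 per role list by Rps26Tir1 p (2 for partner lists), the extreme values of each line and the 3 largest differences, both at average expression of at least 3; further members were named after their values were seen. Planned tests on libraries were not run, as no value per library was used here. One member counted in the lists is not reported here by name or drawn by name.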

Additional observations from a re-analysis of the deposited data

How the results depend on the processing

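No paired analysis was possible because the values are the authors' comparisons, with no replicate numbers; for that reason no replicate could be left out either, and read depth is unknown. Setd1b and Setd6 remained the 2 members called in Rps26Tir1 cells with p-values adjusted anew over the genes of the table, with average expression of at least 3, with centring on the median of all genes and without genes sharing over 50% of their stretches. The count was 0 once the trend with length, GC content and expression was taken out; the cause was not tested. That turned the sign of 14 uncalled members in Rps26Tir1 cells and 8 in FreeTir1 cells. The counts of 0, in FreeTir1 cells and between lines, stayed 0 under each alternative run, including 20 and 60 degrees of freedom. Writers minus erasers ranged from -0.02 to 0.09 in Rps26Tir1 cells, negative only with COMPASS subunits added, and from -0.04 to -0.00224 in FreeTir1 cells.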

Other observations

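Lists of 3 other classes of histone-modifying enzymes and their relatives were also read. Of 9 arginine methyltransferases 3 were positive in Rps26Tir1 cells, with a median of -0.10, and 5 in FreeTir1 cells, with a median of 0.0079. Carm1, a coactivator that methylates arginine on histone H3, was the one called gene of these lists. Its call was in Rps26Tir1 cells, where 1.64% of all genes were called. By the authors' deposited table it stood at -0.43 in Rps26Tir1 cells (standard error 0.109, adjusted p = 0.0402) and at -0.28 in FreeTir1 cells, with adjusted p = 0.556. The call ended once the trend with length, GC content and expression was taken out, at -0.42 and adjusted p = 0.0554; over the settings tried the lowest was 0.0365. Prmt9 had 0.28 (authors' deposited table; adjusted p 0.332).

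Lysine acetyltransferases were positive in 5 of 10 cases in Rps26Tir1 cells, with a median of -0.01, and in 6 in FreeTir1 cells, with a median of 0.09, near the 0.09 of the lysine methylation genes there. Deacetylases of the Hdac and Sirt families, listed by symbol and whether or not histones are their substrate, were positive in 7 of 18 cases in each line. Their medians were -0.02 in Rps26Tir1 cells and -0.10 in FreeTir1 cells. Kat2a, which encodes the acetyltransferase GCN5, had -0.42 in Rps26Tir1 cells and -0.33 in FreeTir1 cells (authors' deposited table; adjusted p 0.0518 and 0.482). Hat1, which acetylates newly made histone H4, had -0.26 (authors' deposited table; adjusted p 0.194). Hdac4 had 0.36 and Hdac3, the catalytic subunit of the NCoR complexes, -0.30 (authors' deposited table; adjusted p 0.101 and 0.139). Median transcript lengths were 2691 bases for arginine methyltransferases, 4106.5 for acetyltransferases and 2035 for deacetylases, against 5083.5 for the lysine methylation genes; the part of length was not tested.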
